A study of Mus musculus with 29 samples.

Results

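The comparison described here is that between mouse neural cells labelled BERKO and wild type (WT) when both had received LY3201, an agonist selective for estrogen receptor beta (ERβ). BERKO is the name for a knockout of ERβ, whose gene is Esr2. Its members were taken from the source labels as the arrays marked BERKO+LY3201 or WT+LY3201, which gave 12 of the 29 arrays of the series. They lie at 3 stages of differentiation from embryonic stem cells (mESC), with 2 arrays per genotype at each: neural precursors expanded with FGFb and laminin (NPC), precursors held with FGFb, FGF8b, Shh and ascorbic acid (mDPC), and cells kept in N2 and ascorbic acid alone (MN). All 12 received 0.5 nM LY3201, for 4 days in NPC and mDPC; the length in MN was not given. The cells grew without feeders, and each array took 150 ng of total RNA. The other neural arrays received vehicle (DMSO, called untreated here) and the 4 mESC arrays had no treatment arm. None of the untreated arrays entered the treated comparison, so the genotype difference was measured in separate arrays with and without the agonist.

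ERβ is a nuclear receptor that binds DNA once a ligand is bound and changes transcription of nearby genes. It occurs in neurons and glia, and its agonists have been studied for effects on differentiation and inflammation in the nervous system. A selective agonist acts mainly through that receptor, and the treated comparison sets cells labelled WT beside cells labelled as lacking the receptor, both given the ligand. Whether the WT cells held the receptor was not tested.

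Values are log2 signals, so a difference of 1 equals a 2-fold change. Every difference is BERKO minus WT, those in treated arrays with n = 2 arrays a group and, in most cases, the model's SE (untreated groups have 2 arrays, or 3 for MN BERKO), and every adjusted p is from limma with Benjamini-Hochberg adjustment over 22063 genes, called at 0.05, 2-sided. Levels were set only between arrays for 1 gene, never between genes. A gene was said to lie above the negative controls when the higher group mean exceeded 7.2, the median over arrays of their 95th percentile.

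Some features of the samples precede the results. The signal of Esr2 went against the label: it was 3.41 and 3.25 in the WT NPC arrays against 4.03 and 4.15 in those labelled BERKO, 3.28 and 3.36 against 3.8 and 4.07 in mDPC, and 3.21 and 3.47 against 4.26 and 4.38 in MN. The BERKO arrays were higher at each stage without overlap, by 0.76 ± 0.13 (adjusted p = 0.000344), 0.61 ± 0.13 (0.00165) and 0.98 ± 0.13 (1.25e-05). All of these levels lay far below 7.2, and the median of the negative controls was 3.78 to 4.09 in the treated arrays. The labels do not give the deleted part of Esr2, so the probes check nothing, and WT and BERKO below name the labels as given. Esr1, which encodes the related receptor ERα, lay between 3.26 and 4.01 and passed the test at no stage (adjusted p from 0.0753 to 0.971). Of 13 tested genes known to respond to estrogen, 2 were higher and 2 lower in BERKO NPC, 3 and 2 in mDPC, and 4 and 3 in MN, where 1 was higher without the second WT array. Of these 13, 5 lay above the negative controls at each stage. Among all genes tested, 4.56% were called higher and 5.81% lower in NPC, 7.23% and 8.1% in mDPC, and 9.01% and 10.6% in MN. The labels name no clone, so a difference between lines and one by genotype cannot be told apart.

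Arrays of 1 treated group correlated at 0.9944 to 0.9985 over genes. The 2 MN WT arrays differed most from each other, with an SD of 0.354 for the difference between them against 0.182 to 0.278 in the other treated pairs. Both treated NPC WT arrays carry a common title number, and both mESC BERKO arrays carry another. The labels do not say whether the arrays of either pair came from 1 culture. Of 17 neural progenitor markers tested, 13, 10 and 10 lay above the negative controls in NPC, mDPC and MN, and of 21 pluripotency genes 1, 1 and 2. Of 15 midbrain dopaminergic markers, 1 lay above the controls at each stage, and Th and Pitx3 failed the filter on low values. At the MN stage 9 of 20 neuronal genes lay above the controls, so MN names the stage and not a neuron content. Markers of microglia, endothelium, endoderm and muscle were called at no stage and none lay above the controls. Of 3 markers of neural crest and Schwann cells, none lay above the controls and 1, Cdh19, was higher in BERKO at each stage (1.49, 1.25 and 1.04, each SE 0.21).

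The treated genotypes differed at each stage. In NPC, 2287 genes were called (10.4% of those tested), 1005 higher and 1282 lower in BERKO. In mDPC 3383 genes were called (15.3%), 1595 higher and 1788 lower, and in MN 4322 (19.6%), 1987 higher and 2335 lower. The excess of lower calls turned with the scaling: quantile normalization gave 1174 higher and 1037 lower in NPC, 1751 and 1578 in mDPC, and 2351 and 1887 in MN. At least 2-fold differences were called for 187 higher and 233 lower genes in NPC, 328 and 330 in mDPC, and 413 and 426 in MN. A fit to the 12 treated arrays alone, which takes no spread from the untreated arrays, called 1694, 2692 and 3277 genes, and 1582, 2516 and 3073 of these were among the calls above. Fits to the compared groups of each stage alone called 1499, 1729 and 1153 genes. The rise in calls from NPC to MN did not hold in those fits, where MN had the fewest. With 1 array left out and fewer degrees of freedom, counts fell most without the second BERKO array in NPC (1281) and MN (2540) and without the first WT array in mDPC (2223). They also fell by over 1.5 times without the first BERKO (1308) or the first WT array (1492) in NPC and without the second WT array in MN (2575). Arrays of both groups failed to overlap for 50.5%, 53.6% and 57.9% of all genes tested, so that lack of overlap alone was common.

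Many genes called without the agonist were called again with it. Without LY3201 15.7%, 13.8% and 20.8% of all genes were called in NPC, mDPC and MN. Of 3454 untreated calls in NPC, 1558 were called the same way with LY3201 (45.1% of the untreated and 68.1% of the treated list) and 19 the opposite way. The same count was 2087 of 3051 in mDPC (68.4% and 61.7%), with 7 opposite, and 2521 of 4584 in MN (55.0% and 58.3%), with 33 opposite. Both lists came from 1 fit, in which treated and untreated arrays share the spread of each gene. With treated calls from the fit to the 12 treated arrays alone, 1284, 1839 and 2119 untreated calls recurred (37.2%, 60.3% and 46.2%). Large differences recurred more: of untreated calls of at least 2-fold, 398 of 509 were called again in NPC (78.2%), 565 of 588 in mDPC (96.1%) and 826 of 915 in MN (90.3%). Their size in treated arrays was a median of 0.906, 0.997 and 0.842 times that in untreated arrays. Over calls of at least 2-fold in treated arrays, the untreated difference was a median of 0.961, 0.883 and 1.019 times the treated one. In the other direction, 389 of the 420 treated calls of at least 2-fold in NPC, 611 of 658 in mDPC and 752 of 839 in MN were called in untreated arrays too. Across genes the treated and untreated differences had a Pearson correlation of 0.593, 0.777 and 0.814, and a Spearman correlation of 0.308, 0.519 and 0.517, given as a description over genes, which are not independent.

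**Figure D1:**
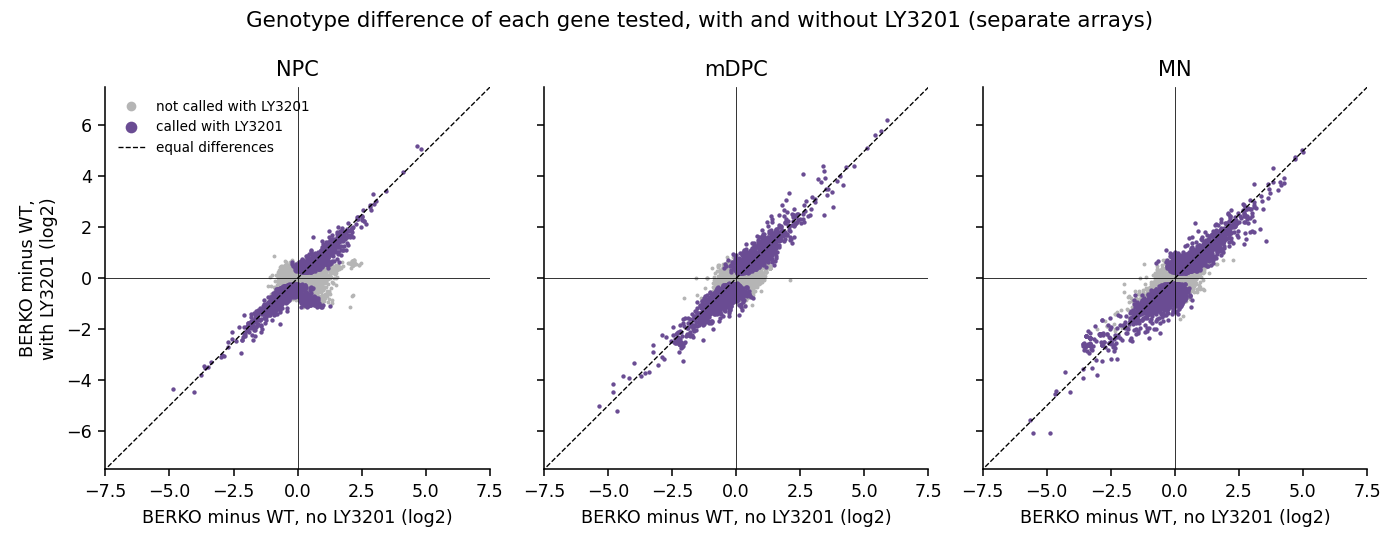
Each point is 1 of the 22063 genes tested, with the BERKO minus WT difference (log2) in untreated arrays on the x axis and in LY3201 arrays on the y axis, for NPC, mDPC and MN. Genes called with LY3201 (purple) lie along the dashed line of equal differences, and 19, 7 and 33 genes were called in opposite directions.

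Across the stages, 485 genes (2.2% of those tested) were called the same way in NPC, mDPC and MN with LY3201, 258 higher (1.17%) and 227 lower (1.03%) in BERKO, and 93 of them differed by at least 2-fold each time. Of the 485, 343 (70.7%) were called that way at all 3 stages without the agonist as well. In mESC, before any neural differentiation, 50 (10.3%) were called the same way and 9 the opposite way, beside 4.21% of all genes called there. Another 129 genes were called at all 3 stages with mixed signs. Calls at 1 stage alone numbered 758 in NPC, 1430 in mDPC and 2504 in MN.

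Ranked by the smallest difference over the stages, the largest rises among genes that met the conditions for naming were in Mageb16 and Luzp2. Mageb16 is an X-linked member of the melanoma antigen family, and Luzp2 a leucine zipper protein. Mageb16 read 5.02 and 5.16 in the WT NPC arrays and 10.23 and 10.12 in the BERKO arrays, 7.06 and 6.26 against 11.81 and 11.76 in mDPC, and 7.86 and 7.53 against 11.66 and 11.63 in MN. Every BERKO array stood far above every WT array, by 5.09 ± 0.17, 5.12 ± 0.17 and 3.95 ± 0.17 (adjusted p = 4.7e-13, 1.74e-13 and 8.36e-12). Luzp2 read 8.21 and 8.25 against 11.61 and 11.68 in NPC, 10.54 and 10.44 against 16.81 and 16.63 in mDPC, and 10.63 and 10.48 against 15.34 and 15.27 in MN. Its groups lay apart at each stage, with differences of 3.41 ± 0.17, 6.23 ± 0.17 (adjusted p = 9.67e-15 in mDPC) and 4.75 ± 0.17. In mESC the differences of Mageb16 and Luzp2 were 0.2 and -0.05, neither called.

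Further genes higher at all 3 stages were Cyp2j6, a cytochrome P450 of fatty acid metabolism (2.81, 4.42 and 2.88, each SE 0.12), Kcnd2, a pore subunit of A-type potassium channels (2.32, 2.12 and 2.17, each SE 0.21), and Slc7a11, the cystine and glutamate exchanger (2.16, 4.4 and 1.68, each SE 0.23). Those lower included Bgn, which encodes the matrix proteoglycan biglycan. Bgn read 10.78 and 10.6 in WT and 7.28 and 7.24 in BERKO NPC, 10.36 and 10.54 against 6.46 and 6.63 in mDPC, and 10.45 and 10.63 against 6.15 and 5.86 in MN. The WT level held near one value across stages while the BERKO level sank, so that the difference went from -3.43 ± 0.15 to -3.9 ± 0.15 and -4.53 ± 0.15 (adjusted p = 1.4e-13 in MN). Prom1, which encodes the progenitor surface protein CD133, differed by -3.03 ± 0.13, -4.17 ± 0.13 and -1.47 ± 0.13. Cadm3, a cell adhesion molecule, differed by -1.64, -2.47 and -2.52 (each SE 0.14).

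**Figure D2:**
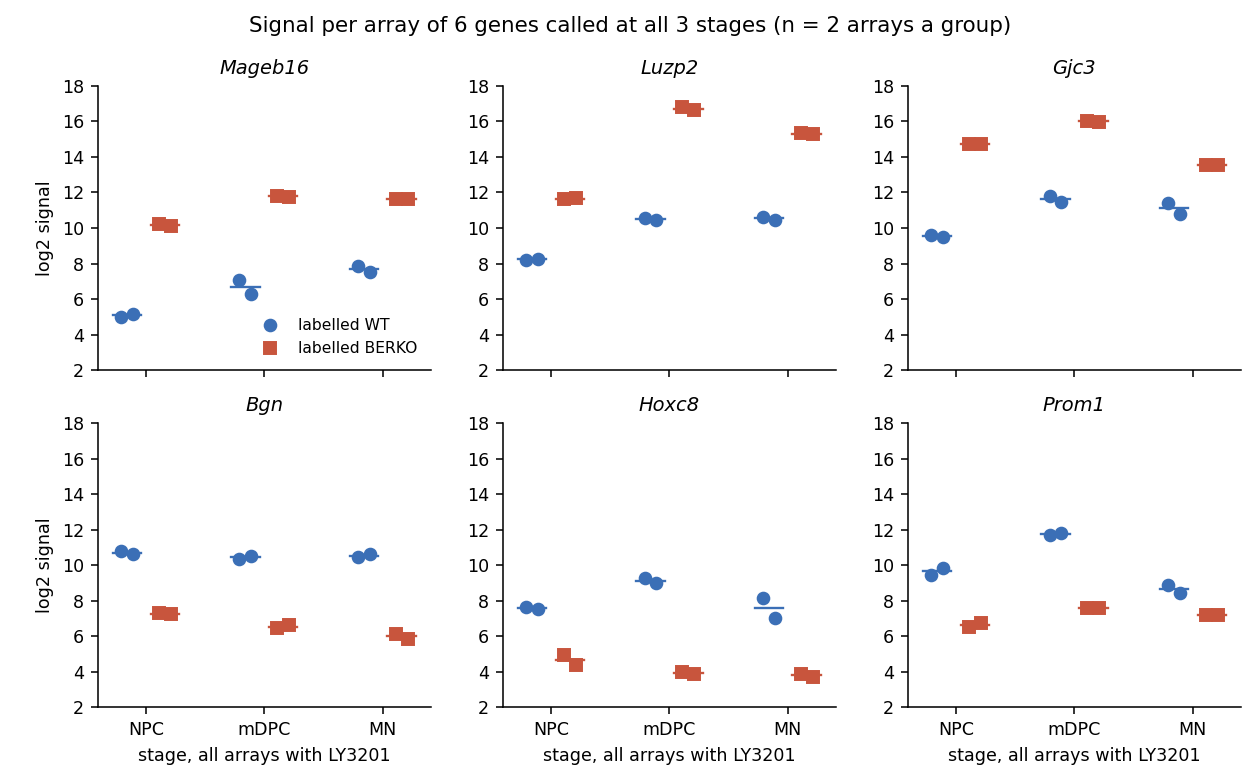
Log2 signal of 6 genes in each of the 12 LY3201 arrays by stage, with WT arrays as blue circles, BERKO arrays as red squares and a line at each group mean (n = 2). Mageb16, Luzp2 and Gjc3 are higher and Bgn, Hoxc8 and Prom1 lower in the BERKO arrays at all 3 stages, with no overlap; Luzp2 in mDPC shows the widest gap, 16.81 and 16.63 against 10.54 and 10.44.

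Lists of genes with known roles are described next by how many of their tested members were called, beside the share of all genes called in that direction: 4.56% higher and 5.81% lower in NPC, 7.23% and 8.1% in mDPC, and 9.01% and 10.6% in MN. Without LY3201 these shares were 10.6% and 5.08% in NPC, 8.51% and 5.32% in mDPC, and 13.5% and 7.31% in MN, an excess of higher calls that quantile normalization turned in NPC (1326 higher, 1702 lower) and mDPC (1445 and 1709) and lessened in MN (2370 and 2034). The median difference of all genes was -0.024, -0.021 and -0.037 at the 3 stages.

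**Figure D3:**
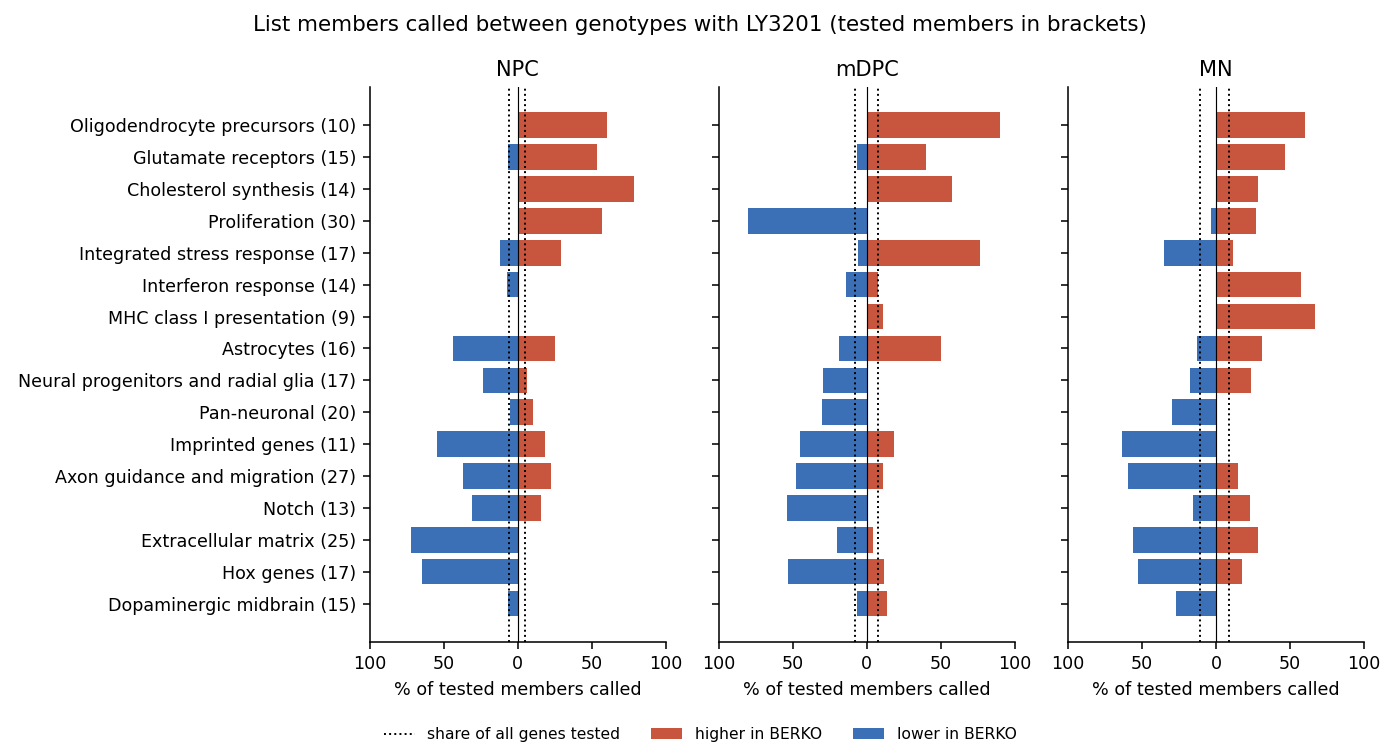
Percent of the tested members of 16 gene lists called higher (red, to the right) or lower (blue, to the left) in BERKO than in WT among LY3201 arrays, with dotted lines at the share of all genes tested. Oligodendrocyte precursor genes were higher at each stage, with 6, 9 and 6 of 10 called and none lower, while proliferation genes went from 17 of 30 higher in NPC to 24 of 30 lower in mDPC.

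Genes of oligodendrocyte precursors, the glial progenitors that later make myelin, were higher in BERKO at all 3 stages. Of 10 tested members, 6 were higher in NPC, 9 in mDPC and 6 in MN, and none was lower; the median differences were 0.885, 1.622 and 0.605. In MN the count was 3 without the second WT array. The Schwann cell marker Cdh19 was higher at the same stages, at 5.87 or lower in every treated array, and its part in these differences was not tested. In these bulk samples, more cells of a type and more RNA per cell cannot be told apart. Gjc3, a connexin of oligodendrocyte lineage cells, read 9.58 and 9.52 in WT and 14.74 and 14.73 in BERKO NPC, 11.81 and 11.48 against 16.05 and 15.97 in mDPC, and 11.43 and 10.78 against 13.54 and 13.53 in MN. The gap narrowed along the stages, from 5.18 ± 0.21 to 4.37 ± 0.21 and 2.44 ± 0.21, without overlap at any. Olig2, a transcription factor that specifies the lineage, read 14.17 and 13.83 against 15.8 and 15.84 in NPC, 13.48 and 13.34 against 14.99 and 15.12 in mDPC, and 13.06 and 12.76 against 13.64 and 13.68 in MN. It was higher by 1.82 ± 0.18 and 1.64 ± 0.18, and in MN by 0.75 ± 0.18 (adjusted p = 0.00595), a call lost without the second WT array (0.61, adjusted p = 0.0878).

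Members of the oligodendrocyte list differed in timing, and 5, 7 and 7 of the 10 tested lay above the negative controls in NPC, mDPC and MN. Lhfpl3, a membrane protein enriched in precursors, was higher at each stage (2.4, 1.6 and 1.39, each SE 0.12). Gpr17, a receptor of precursors about to differentiate, was higher by 2.23 ± 0.3 in NPC and 1.44 ± 0.3 in mDPC, and its MN arrays overlapped (0.11, adjusted p = 0.851). Sox10, the lineage's later transcription factor, differed most in mDPC, where WT arrays read 5.24 and 5.21 and BERKO arrays 6.81 and 7.29 (1.83 ± 0.18, adjusted p = 3.03e-07). Enpp6, a marker of newly forming oligodendrocytes, was higher in mDPC alone among the calls, with 4.88 and 4.72 against 9.0 and 8.8 (4.1 ± 0.41). The difference of Enpp6 changed by 4.15 from NPC to mDPC and by -3.53 from mDPC to MN, both called. Olig1, the partner of Olig2, was called at no stage (0.11, -0.14 and -0.1). Of 9 myelin genes tested, none was called in NPC, 3 were higher in mDPC, and in MN 1 was higher (Cldn11, 2.19 ± 0.31) and 2 were lower, among them Mobp, with 10.93 and 10.15 against 8.57 and 7.75 (-2.38 ± 0.3). Only 2, 1 and 6 of the 9 lay above the negative controls in NPC, mDPC and MN.

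Receptor subunits for glutamate were mostly higher in BERKO where they were called. Of 15 tested, 8 were higher and 1 lower in NPC, 6 and 1 in mDPC, and 7 and 0 in MN, where leaving out the first WT array gave 5 and 2. Above the negative controls lay 9, 8 and 4 of the 15 in NPC, mDPC and MN. Among the 4 AMPA subunits, 3 were higher in NPC and in mDPC and 1 in MN. Gria4 read 10.06 and 9.94 against 13.07 and 12.99 in NPC, 9.71 and 9.75 against 13.66 and 13.81 in mDPC, and 8.44 and 8.56 against 10.13 and 10.27 in MN. Its groups stood apart at each stage, by 3.03, 4.01 and 1.7 (each SE 0.13). Grm3, a metabotropic receptor of astrocytes and neurons, was higher by 4.17, 3.26 and 1.84 (each SE 0.18), and the NMDA subunit gene Grin3a by 2.42, 2.02 and 1.02 (each SE 0.14). A kainate subunit gene, Grik3, was higher in NPC alone (1.82 ± 0.09), with adjusted p of 0.473 and 0.0923 at the later stages.

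Gabra4 and Gabrb1, which encode subunits of the GABA-A receptor, the main inhibitory channel of the brain, were named for their large rises, and no list of these subunits was tested. Gabra4 read 6.24 and 6.43 in WT and 9.6 and 9.65 in BERKO NPC, 6.87 and 6.6 against 12.6 and 12.45 in mDPC, and 6.19 and 6.41 against 9.83 and 10.2 in MN. The WT arrays stayed low throughout, and the difference was 3.29, 5.79 and 3.71 (each SE 0.22). Gabrb1 read 5.95 and 6.02 against 7.26 and 7.33 in NPC, 6.26 and 6.09 against 11.81 and 11.75 in mDPC, and 7.48 and 7.47 against 12.21 and 12.13 in MN. Its difference was 1.31 in NPC, 5.61 in mDPC and 4.69 in MN (each SE 0.15), and the increase from NPC to mDPC, 4.29, was itself called.

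Extracellular matrix genes were lower in BERKO NPC and mixed later. In NPC, 18 of 25 tested were lower and none higher, with a median of -1.143, and 7 of 9 collagens were among them. In mDPC 5 were lower and 1 higher, and in MN 14 were lower and 7 higher. Apod encodes the lipid carrier apolipoprotein D and is no member of that list. Among called genes that met the conditions for naming, it had the largest negative difference in NPC and, with Car3, in MN. Apod read 12.42 and 12.08 against 7.9 and 7.67 in NPC, 7.08 and 6.73 against 4.68 and 4.59 in mDPC, and 13.67 and 13.16 against 7.67 and 6.99 in MN (-4.46, -2.27 and -6.08, each SE 0.25). The WT level was high in NPC and MN and low between, and the BERKO arrays lay below WT at each stage.

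The matrix proteoglycan decorin, encoded by Dcn, followed the same course. Dcn read 10.78 and 11 against 6.53 and 6.54 in NPC, 5.37 and 5.31 against 4.76 and 4.72 in mDPC, and 9.54 and 10.48 against 4.73 and 4.19 in MN. Its difference was -4.35 ± 0.22 in NPC and -5.55 ± 0.22 in MN, and it was not called in mDPC (-0.6 ± 0.22, adjusted p = 0.0798), where WT levels were near background. The protease gene Mmp2 differed by -3.79, -1.1 and -2.0 (each SE 0.1), the fibrillar collagen gene Col3a1 by -3.05, -0.32 (adjusted p = 0.292) and -2.82 (each SE 0.18), and Postn, a matrix protein of connective tissue, by -3.27, -0.29 (adjusted p = 0.207) and -2.84 (each SE 0.14). Collagen VI turned: Col6a1 read 8.1 and 7.75 against 6.22 and 6.29 in NPC, but 9.44 and 8.57 against 12.08 and 12.2 in MN (-1.67 and 3.14, each SE 0.19). Tnc, which encodes tenascin C, was higher in BERKO MN, with 8.34 and 7.25 against 10.81 and 10.53 (2.88 ± 0.24). Mesenchyme markers beside the matrix genes were mostly low: none of 12 lay above the negative controls in NPC or mDPC and 2 did in MN, 4, 1 and 3 were lower, and 0, 1 and 1 higher. The mean level of the mesenchyme list was 5.25 and 5.2 in WT and 4.71 and 4.58 in BERKO NPC, 4.61 and 4.61 against 4.53 and 4.55 in mDPC, and 5.74 and 5.78 against 5.28 and 5.33 in MN. The mean level of the matrix list ranged from 7.73 to 7.82 in WT and 6.33 to 6.36 in BERKO NPC, and from 8.46 to 8.62 and 7.54 to 7.65 in MN. The part of any mesenchymal cells in these differences was not tested.

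Hox genes, which set position along the body axis, were lower in BERKO when they belonged to the trunk group. Of the 11 trunk members tested, 10 were lower in NPC, 9 in mDPC and 9 in MN, and none was higher; their medians were -1.393, -1.515 and -1.179. Of the 6 hindbrain members, 1 was lower in NPC, 2 were higher in mDPC and 3 in MN (1 without the second WT array). Hoxc8 read 7.63 and 7.51 in WT and 4.92 and 4.38 in BERKO NPC, 9.26 and 9.0 against 3.97 and 3.85 in mDPC, and 8.14 and 7.02 against 3.89 and 3.72 in MN. In the later stages its BERKO arrays were at background level, and the difference was -2.92, -5.23 and -3.78 (each SE 0.25). Hoxc9 differed by -2.11, -2.06 and -1.62 (each SE 0.14) and Hoxb8 by -1.65, -2.22 and -2.33 (each SE 0.15). Of all 17 Hox genes tested, only 4, 3 and 3 lay above the negative controls in NPC, mDPC and MN. Hoxc9 and Hoxb8 were not among them in mDPC and MN. The hindbrain gene Hoxa2 went the other way, with 7.92 and 7.72 against 9.7 and 9.46 in mDPC (1.75 ± 0.12) and 1.19 ± 0.12 in MN, after 0.25 in NPC (adjusted p = 0.279). Among 9 forebrain and midbrain factors, 1, 2 and 1 were higher and none was lower.

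Genes of axon guidance and cell migration were more often lower than higher in BERKO. Of 27 tested, 10 were lower and 6 higher in NPC, 13 and 3 in mDPC, and 16 and 4 in MN; in NPC the lower count was 6 without the first BERKO or the first WT array. Cxcr4, the receptor that guides migrating progenitors along the chemokine Cxcl12, read 10.66 and 10.65 against 8.21 and 8.35 in NPC, 11.78 and 11.6 against 8.0 and 8.04 in mDPC, and 11.11 and 11.18 against 10.14 and 10.07 in MN. The BERKO arrays were lower at each stage, without overlap (-2.38, -3.67 and -1.04, each SE 0.17). Plxna2, a semaphorin receptor, differed by -1.31, -2.39 and -1.45 (each SE 0.12). Reln, the secreted signal reelin that positions neurons, read 11.42 and 12.13 against 8.84 and 8.05 in mDPC (-3.33 ± 0.24). The netrin receptor gene Dcc was an exception, higher in NPC (1.77 ± 0.12) and MN (0.93 ± 0.12) and not called in mDPC (adjusted p = 0.803).

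In the Notch pathway, which keeps progenitors undifferentiated through contact between cells, the calls in mDPC were all lower. Of 13 tested there, 2 of 3 receptors, 3 of 5 ligands and 2 of 5 targets were lower and none was higher. Notch2 read 10.49 and 10.14 against 9.56 and 9.63 in NPC, 10.1 and 10.45 against 9.04 and 8.55 in mDPC, and 10.82 and 11.08 against 9.19 and 9.32 in MN. The BERKO arrays lay below WT at each stage (-0.72, -1.48 and -1.69, each SE 0.18), although the NPC call was lost without any 1 of 3 arrays (without the first WT array, -0.55, adjusted p = 0.153, and without the first or second BERKO array, adjusted p = 0.0842 and 0.0553). The ligand gene Jag1 was lower in NPC and mDPC (-1.18 and -1.09, each SE 0.12). Nrarp, a feedback target, was higher in NPC (1.26 ± 0.18) and lower in mDPC (-1.16 ± 0.18). The whole list had 2 higher and 4 lower members in NPC, the latter 2 without the first or second BERKO or the first WT array, and 3 higher and 2 lower in MN. Wnt pathway genes had 5, 3 and 8 of 20 lower and 0, 0 and 2 higher, and BMP pathway genes 4, 1 and 2 of 13 lower and 1, 5 and 5 higher. Above the negative controls lay 5, 4 and 4 of the 20 Wnt genes and 5, 3 and 6 of the 13 BMP genes. The 8 Wnt genes in MN were 5 without the first BERKO array and 4 without the second BERKO or the second WT array, and the 4 BMP genes in NPC were 2 without either BERKO or the first WT array.

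Proliferation genes differed in opposite directions by stage. Of 30 tested, 17 were higher in BERKO NPC and none lower, 24 were lower in mDPC and none higher, and in MN 8 were higher and 1 lower. The list mean was 9.73 and 9.77 in WT and 10.21 and 10.17 in BERKO NPC, 6.39 and 6.4 against 5.34 and 5.37 in mDPC, and 8.03 and 8.21 against 8.21 and 8.31 in MN. The genotypes stood apart in NPC and mDPC, and in MN the values met at 8.21. In mDPC 7 of the 30 lay above the negative controls, against 25 in NPC and 23 in MN. Mki67, which encodes the antigen Ki-67 of dividing cells, read 15.13 and 14.44 against 15.81 and 15.7 in NPC, 8.08 and 8.52 against 5.18 and 5.08 in mDPC, and 12.59 and 12.5 against 12.77 and 12.81 in MN. Its level was thus low in all mDPC arrays and lowest in BERKO, with differences of 0.97 ± 0.2 (adjusted p = 0.0028), -3.17 ± 0.2 (8.92e-10) and 0.25 ± 0.2 (0.442). Without the second WT array the NPC value was 0.62 (adjusted p = 0.0831).

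In NPC 14 of 17 mitosis genes and 3 of 13 DNA replication genes were higher, and in mDPC 13 and 11 were lower; the difference between these groups of genes was not tested. Top2a, the topoisomerase of dividing cells, differed by 0.71, -2.57 and 0.47 (each SE 0.12), and Kif11, a spindle motor, by 0.77, -2.52 and 0.76 (each SE 0.11). The step from NPC to mDPC was called for Mki67 (-4.14) and Kif11 (-3.28). Without agonist, 26 were higher in NPC, 22 lower in mDPC and 26 higher in MN. Calls in treated NPC also depended on the WT arrays: Aurka, Bub1 and Kif20a, among others, lost theirs without either of them. In the treated arrays, the NPC count was 8 without the first and 11 without the second BERKO array, 11 in the fit to the 12 treated arrays and 10 with same-number arrays averaged, and the MN count of higher genes was 3 without the second BERKO array, 4 without the first and 5 without the second WT array.

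Amino acid and stress response genes downstream of the factor Atf4 were higher in BERKO mDPC. Of 17 tested, 13 were higher and 1 lower there, with a median of 0.617, while NPC had 5 higher and 2 lower and MN 2 higher and 6 lower. The NPC count of 5 was 2 without the second BERKO and 3 without the second WT array, that of 2 lower genes was 0 or 1 without any 1 of the 4 arrays, and the MN count of 6 was 3 without the second BERKO array. Asns, which makes asparagine, read 8.3 and 8.22 against 8.79 and 8.9 in NPC, 7.99 and 7.82 against 10.29 and 10.18 in mDPC, and 8.09 and 8.1 against 7.92 and 7.87 in MN. Only the mDPC groups were far apart (2.33 ± 0.13, adjusted p = 1.92e-10). The mitochondrial folate enzyme gene Aldh1l2 differed by 2.5 ± 0.14 in mDPC. Phgdh, the first enzyme of serine synthesis, was the lower member, with 14.06 and 13.78 against 13.25 and 13.16 (-0.72 ± 0.15).

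Genes of cholesterol synthesis were higher at each stage or not called. Of 14 tested, 11 were higher in NPC, 8 in mDPC and 4 in MN, and none was lower; in MN the count was 1 without the second BERKO array and 2 without the first WT array. Lss, which closes the sterol ring, read 9.27 and 9.17 against 10.2 and 10.25 in NPC, 7.16 and 7.43 against 7.9 and 7.85 in mDPC, and 7.6 and 7.93 against 8.35 and 8.26 in MN. The BERKO arrays lay above WT each time, by 1.01, 0.58 and 0.54 (each SE 0.11). Idi1, an early enzyme of the pathway, differed by 0.66, 1.46 and 0.57 (each SE 0.13), and the MN call was lost without the first WT array (0.44, adjusted p = 0.0525) or the second BERKO array (0.42, adjusted p = 0.0797).

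Interferon response genes were higher in BERKO MN and near background earlier. In MN 8 of 14 were higher and none lower, with a median of 0.608, while in NPC and mDPC none of the 14 lay above the negative controls, 0 and 1 were higher and 1 and 2 lower. Ifit1, an antiviral protein, read 6.9 and 7.47 in WT and 8.9 and 9.36 in BERKO MN (1.95 ± 0.36, adjusted p = 0.000707). Ifit3 read 7.49 and 7.23 against 8.78 and 8.9 (1.48 ± 0.25), and Bst2, a membrane tether of viruses, 7.13 and 7.41 against 8.81 and 9.37 (1.82 ± 0.24). The groups did not overlap for any of the 3. In untreated MN arrays 12 were higher, and the differences were 3.32 for Ifit1, 3.56 for Ifit3 and 2.95 for Bst2. The gap between treated and untreated differences was called for Ifit3 (-2.08).

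Genes that present antigen on MHC class I were higher in MN too. There 6 of 9 were higher and none lower (median 0.394), against 0 in NPC and 1 in mDPC, and 8 in untreated MN. Only 2 of the 9 lay above the negative controls in treated MN, and H2-K1 stayed below 7.2 in each treated MN array. H2-K1 read 5.75 and 5.91 against 6.98 and 7.08 in MN (1.2 ± 0.09), and the light chain gene B2m 15.31 and 15.07 against 16.25 and 16.17 (1.02 ± 0.17). Reactive glia and acute phase genes had 5 of 10 higher in MN, led by Serpina3n, with 13.65 and 13.36 against 16 and 15.92 (2.45 ± 0.2). Of 4 complement genes tested there, 3 were higher and 1 lower: C4b was higher, with 13.88 and 13.74 against 15.51 and 15.51 (1.7 ± 0.11), and the inhibitor gene Serping1 lower, with 15.37 and 15.06 against 12.57 and 12.91 (-2.48 ± 0.18). Markers of microglia stayed below the negative controls in all of these arrays.

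The count of neuronal genes called in MN moved with each array left out. Of 20 tested, 6 were lower in BERKO MN and none higher (median -0.564). The list mean was 6.61 and 7.55 in the WT arrays and 6.25 and 6.28 in the BERKO arrays, so that the second WT array stood apart from the first. Without that array 1 was lower, without the first WT array 12, without either BERKO array 2, and with quantile normalization 3. Snap25, a protein of synaptic vesicle release, read 5.89 and 7.61 against 4.81 and 4.98 (-1.86 ± 0.62, adjusted p = 0.0425), and -0.99 (adjusted p = 0.433) without the second WT array. The call was lost without the first or second BERKO array too (adjusted p = 0.148 and 0.126). Slc17a6, the vesicular transporter of glutamatergic neurons, read 2.98 and 6.61 against 2.77 and 2.97 and was not called (adjusted p = 0.0559). The enzyme gene Car3 read 7.57 and 12.98 against 4.11 and 4.28 (-6.08 ± 1.65, adjusted p = 0.0134), and -3.38 (adjusted p = 0.258) without the second WT array, while it also lost the call without the first or second BERKO array (adjusted p = 0.0642 and 0.0648). In untreated MN, 16 of the 20 neuronal genes were lower.

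At the earlier stages, in NPC 2 were higher and 1 lower, and in mDPC 6 were lower and none higher. The lower gene in NPC, Dcx, lost its call without any 1 treated NPC array, at differences of -1.14 to -1.16. Tubb3, among the lower genes in mDPC, lost its call without the second BERKO or the first WT array, at -1.37 each time. Rbfox3, which encodes the nuclear antigen NeuN, read 5.98 and 6.12 against 4.51 and 4.57 in mDPC (-1.51 ± 0.13). Its level lay below the negative controls' 95th percentile. The list mean was 6.61 and 6.59 in WT against 6.26 and 6.28 in BERKO mDPC.

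**Figure D4:**
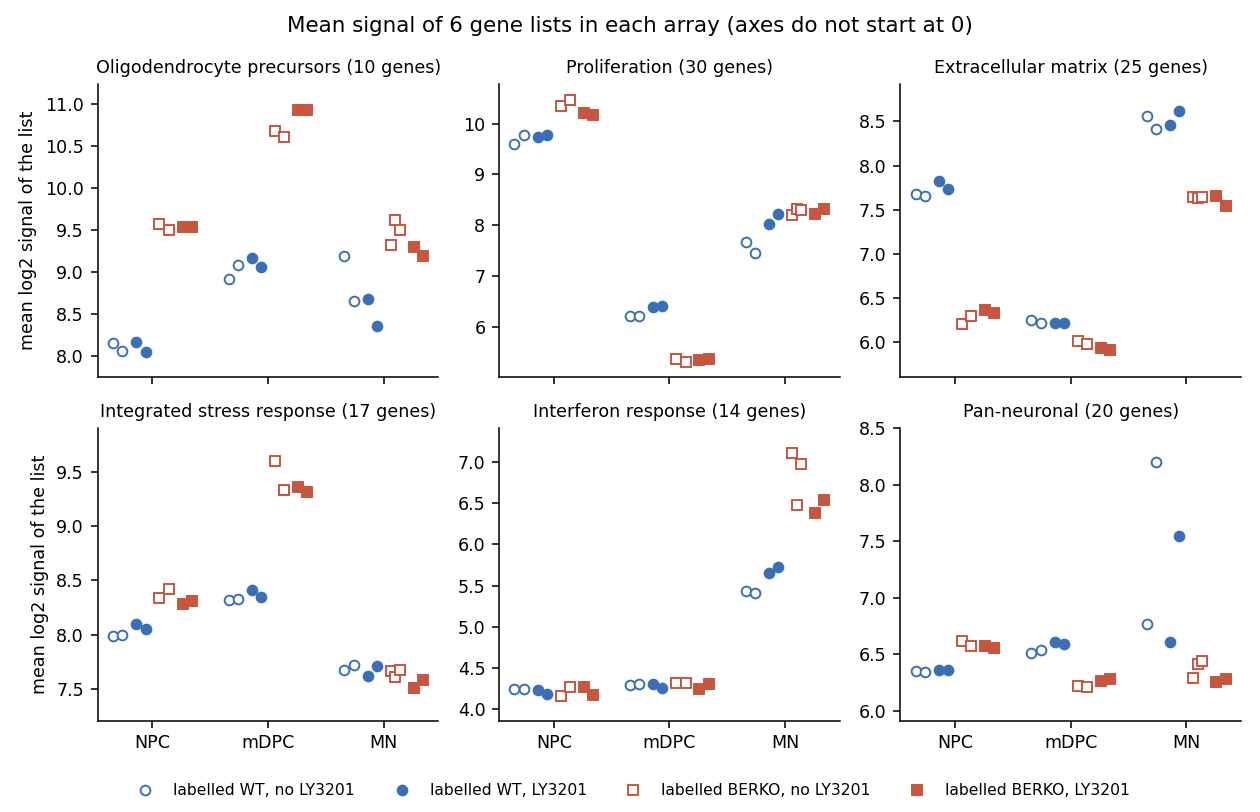
Mean log2 signal of 6 gene lists in each neural array, by stage, with WT as blue circles and BERKO as red squares, filled for LY3201 and open for untreated arrays. The filled points repeat the order of the open ones for oligodendrocyte, proliferation and matrix genes, except that WT proliferation values with LY3201 in MN (8.03 and 8.21) reach those of BERKO (8.21 and 8.31), and the second treated WT MN array stands at 7.55 for neuronal genes against 6.61 in the first.

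Astrocyte genes went both ways. Of 16 tested, 4 were higher and 7 lower in NPC, 8 and 3 in mDPC, and 5 and 2 in MN. The NPC count of 7 was 4 without the first BERKO or the first WT array, that of 4 was 2 without the second WT array, and the mDPC count of 8 was 5 without the second BERKO or either WT array. Aldh1l1, a folate enzyme used as an astrocyte marker, was higher at each stage (1.02, 1.53 and 1.27, each SE 0.09). Gfap, the filament protein of astrocytes, read 10.54 and 10.07 against 8.43 and 8.61 in NPC, 16.45 and 16.5 against 14.11 and 13.62 in mDPC, and 19 and 18.93 against 18.78 and 18.84 in MN. The groups were apart in the first pair of stages (-1.79 and -2.61, each SE 0.22) and not called in MN, where the WT arrays lay just above the BERKO arrays (adjusted p = 0.683). Slc1a2, the main glutamate transporter of astrocytes, was lower in NPC (-1.14 ± 0.13) and MN (-1.95 ± 0.13).

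Imprinted genes, expressed from 1 parental copy, were lower in BERKO for most of those called. Of 11 tested, 6 were lower and 2 higher in NPC, 5 and 2 in mDPC, and 7 and 0 in MN, and the 2 higher in NPC were not called without any 1 of the 4 arrays. Sgce read 10.16 and 10.11 against 9.59 and 9.58 in NPC, 10.52 and 10.57 against 9.46 and 9.43 in mDPC, and 11 and 10.83 against 9.51 and 9.58 in MN. Its gap widened along the stages (-0.55, -1.1 and -1.37, each SE 0.09). The retroviral-type gene Peg10, its neighbour, differed by -1.76 ± 0.21 in mDPC and -1.93 ± 0.21 in MN. In NPC Peg10 was among the lower genes, but that call too was lost without any 1 of the 4 arrays (-0.69 to -0.72).

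Calls of opposite sign between stages numbered 181 for NPC against mDPC, 168 for NPC against MN and 200 for mDPC against MN, beside 958, 836 and 1228 of the same sign. The same-sign calls of NPC and mDPC were 41.9% of the NPC and 28.3% of the mDPC list, and those of mDPC and MN 36.3% and 28.4%. The change of the genotype difference between stages was called for 1598 genes from NPC to mDPC (7.24% of those tested, with 816 or 3.7% up and 782 or 3.54% down) and for 2273 from mDPC to MN (10.3%, with 1215 or 5.51% up and 1058 or 4.8% down). These 2 tests share the mDPC arrays. Cd24a, a surface protein of neuroblasts and ependymal cells, read 15.12 and 15.08 against 13.78 and 13.75 in NPC, 14.55 and 14.57 against 13.03 and 12.69 in mDPC, and 15.25 and 15.31 against 17.37 and 17.34 in MN. It was lower in BERKO in NPC and mDPC and then higher, without overlap (-1.33, -1.7 and 2.07, each SE 0.13).

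Several genes were called at 1 stage and far from it at another. Padi2, an enzyme of protein citrullination, was not called in NPC (-0.1), lower in mDPC (-1.58) and higher in MN (3.7; each SE 0.21), where arrays read 9.28 and 8.77 against 12.82 and 12.63. Susd2, a membrane protein, read 5.18 and 4.85 in WT and 10.13 and 9.94 in BERKO MN (5.02 ± 0.13), and was not called earlier (adjusted p = 0.292 and 0.993). A2m, which encodes a protease inhibitor, was lower in mDPC, with 10.51 and 10.77 against 5.66 and 5.57 (-5.02 ± 0.14), and in MN (-2.82 ± 0.14), but not called in NPC (-0.16, adjusted p = 0.629). Car2, a carbonic anhydrase, was higher in NPC and mDPC (1.1 and 1.28) and lower in MN (-1.34; each SE 0.14).

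The test of whether the genotype difference itself changed with LY3201 called few genes. On simulated data it recovered a smaller share of genes changed by 0.5 or 1 than the treated comparison did. In NPC 110 were called (0.499% of those tested), 1 (0.00453%) with a larger and 109 (0.494%) with a smaller value of BERKO minus WT in treated arrays. In mDPC limma called none, with 1845 genes at an unadjusted p under 0.05, and in MN 139 (0.63%), 8 larger (0.0363%) and 131 smaller (0.594%). These counts moved with the processing and with single arrays: quantile normalization gave 0, 3 and 9 in NPC, mDPC and MN. In NPC the count was 0 without the second untreated BERKO, the first treated BERKO, the first untreated WT or the first treated WT array, 1 without the second treated BERKO, 25 without the second untreated WT, 201 without the second treated WT and 376 without the first untreated BERKO array. In MN it ranged from 18 without the second treated WT array to 347 without the first; it was 20 and 21 without the second or first treated BERKO array, 27 without the third and 260 without the second untreated BERKO array, and 32 and 238 without the second or first untreated WT array. In mDPC it was 8 without the first untreated WT array.

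Among called NPC genes that met the conditions for naming, the largest gaps were in ribosomal protein pseudogenes. Their signal cannot be told from that of the parent genes. Rpl13-ps3 read 13.48 and 13.09 against 13.2 and 13.02 in treated arrays, where the groups overlapped (-0.17, adjusted p = 0.713), beside an untreated difference of 1.39. In MN, besides Ifit3, the calcium-binding gene S100a6 differed by 1.36 ± 0.18 with the agonist and 2.71 without it, with treated levels of 7.37 and 7.52 against 8.75 and 8.86. Anxa3, an annexin, differed by 1.81 ± 0.14 and 3.09.

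Genes called lower at all 3 treated stages were also placed along the genome. In the order of protein-coding genes in the RefSeq annotation of GRCm38.p6, 13% of them lay on the X chromosome, as did 7.5% of those called higher, and the X held 3.77% of the genes in order. For this description a gene counted as above the negative controls where it exceeded the array's own 95th percentile of them in at least 2 of the 29 arrays. Over windows of 15 neighbouring genes above the negative controls, 11 of 7454 had a median difference of -0.5 or lower at all 3 stages. All of these lay in 1 stretch of the X chromosome, from Clcn5 to Mid1ip1, and no window was as high in the other direction. The lowest medians were -1.02 in NPC, -1.33 in mDPC and -1.25 in MN, against -0.29, -0.43 and -0.42 for windows on other chromosomes. This stretch was picked out after its values were seen, so its values are a description.

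The stretch held 45 tested protein-coding genes, 20 of them lower at all 3 stages and none higher. Of the 18 above the negative controls, 17 were lower at each stage, and the other, Dynlt3, missed the threshold in mDPC (-0.51, adjusted p = 0.133). Of these 18, Tbc1d25 (5.23 to 6.04) and Slc35a2 (5.85 to 7.19) lay below 7.2 in every treated array. The mean over these 18 genes was 8.5 to 8.71 in the treated WT arrays and 7.46 to 7.6 in the treated BERKO arrays, with no overlap. Hdac6, a cytoplasmic deacetylase, read 8.46 and 8.3 against 7.5 and 7.7 in NPC, 8.96 and 9.0 against 7.74 and 7.57 in mDPC, and 8.8 and 8.98 against 7.45 and 7.64 in MN (-0.78, -1.33 and -1.35, each SE 0.14). Porcn, which acylates Wnt proteins for secretion, differed by -0.92, -1.2 and -1.3 (each SE 0.11), and Rpgr, a protein of the photoreceptor cilium, by -1.02, -1.07 and -1.17 (each SE 0.09). Porcn was also counted in the Wnt list above, among its lower genes at each stage.

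The genes of the stretch differed before differentiation too, although both mESC BERKO arrays may have come from a single culture. In mESC 14 of the 18 were called lower, beside 2.53% of all genes (1.68% higher), with a median of -0.87, and Hdac6 and Porcn differed by -1.54 and -1.67. Of the 38 genes in order that were lower at all 3 treated stages and in mESC, 17 lay in the stretch. Untreated medians of the 18 were -0.86, -1.12 and -1.01 in NPC, mDPC and MN, beside -1.02, -1.33 and -1.21 with LY3201. The other 258 X genes above the controls had medians of 0.02, 0.04 and 0.02. Of the genes that follow the stretch, Atp6ap2, Med14 and Usp9x differed by -0.12, 0.28 and 0.23 in NPC, and Med14 was called there; it was also called in mDPC and in the other direction (-0.32, adjusted p = 0.00743).

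**Figure D5:**
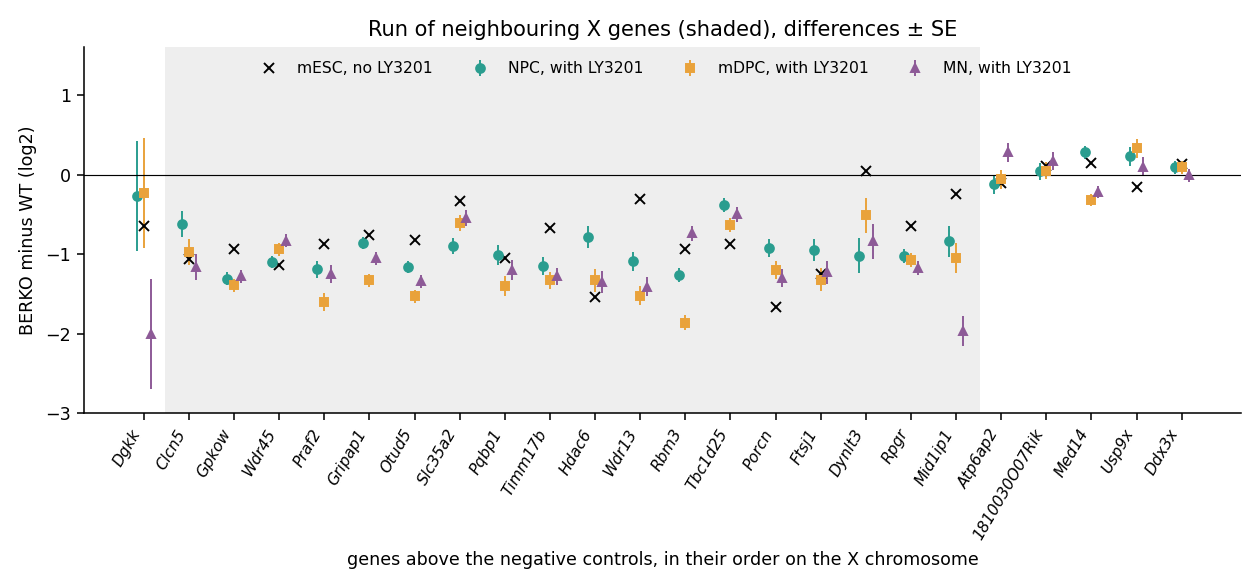
BERKO minus WT differences (log2, ± SE from the model) for genes above the negative controls in their order on the X chromosome, in LY3201 arrays at 3 stages and in mESC (crosses, no LY3201). The 18 genes in the shaded stretch from Clcn5 to Mid1ip1 lie below 0 in each treated comparison, with medians of -1.02, -1.33 and -1.21, and the 5 genes after it lie between -0.32 and 0.33 in the treated comparisons.

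The promoters of the called genes were searched for the element that estrogen receptors bind, since the agonist acts on one of them. The search used RefSeq windows of 300 bases in GRCm38.p6, 250 before and 50 after each start, and the palindrome GGTCANNNTGACC, which reads alike on both strands and contains the half-site GGTCA. Of the genes tested, 13032 had a window, and 5 held the palindrome, as did 20 of all 27025 genes in the table. Among genes called at all 3 stages it was in 0 of 165 lower and 0 of 196 higher ones with a window, and the half-site on either strand was in 38.2% and 38.3%, against 42.2% of the genes tested. The only holder called at any stage was Pde10a, a phosphodiesterase of striatal neurons. Its site lies at chr17:8849994-8850022 on the plus strand, with the palindrome in capitals 18 to 30 bases after the start, in the transcribed part:
Pde10a: gggcggttGGTCAACCTGACCagagggag
Pde10a read 5.61 and 5.67 in WT and 6.22 and 6.3 in BERKO NPC, 5.72 and 5.74 against 6.11 and 5.9 in mDPC, and 5.03 and 5.19 against 5.44 and 5.51 in MN. It was higher in BERKO NPC (0.62 ± 0.11, adjusted p = 0.000636) and MN (0.36 ± 0.11, adjusted p = 0.0258) and not called in mDPC (adjusted p = 0.107), with untreated differences of 0.71, 0.34 and 0.34. A match is a description of the letters and no evidence of binding.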

How the data were processed

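RNA was measured on 29 arrays. The deposited table holds log2 values, which per the labels' description came from SST-RMA (Affymetrix Expression Console 1.4), with 1 number for each transcript cluster on each array; the submitters' processing notes also name RMA and the Transcriptome Analysis Console. The genome build of the clusters is not given in the sources used here. The values were used as deposited.

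Of 72688 entries, 65956 were clusters and 6732 controls, 5222 of them negative controls. The platform annotation gave 1 symbol to 30604 clusters, several to 2146 and none to 33206, and 827 symbols were updated through RefSeq. For the 355 genes with several clusters the one with the highest mean was used. A gene was tested (22063 of 30142) where its signal exceeded the median over clusters on 2 arrays or more.

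limma 3.58.1 in R 4.3.3 fitted 1 mean per group (14 groups) to all arrays, with 15 residual degrees of freedom (6 for the 12 treated arrays alone) and Benjamini-Hochberg adjustment. The labels call the samples biological replicates but name no cultures, so p-values measure the spread between these samples. The labels give no batch. Their number, 2 a group, limits the precision.

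Genes named were Esr1, Esr2, the largest rises and falls per comparison among called genes above the negative controls whose groups did not overlap, and up to 4 such members per list; others are given to show a list's range, and Slc17a6, the X genes and Pde10a were chosen after their values were seen. Predicted genes, small RNAs, olfactory and vomeronasal genes, and immunoglobulin and T cell receptor segments were not eligible for naming. The genes, lists and tests were chosen with earlier results of these data known.

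On simulated data of 22063 genes, the model recovered 40%, 36% and 32% of genes changed by 0.5, and 90%, 90% and 86% of those changed by 1 (log2) in NPC, mDPC and MN. For the treated minus untreated difference it recovered 12%, 16% and 22% of those changed by 0.5, and 70%, 76% and 80% of those changed by 1. The simulation gave each gene 1 spread for all groups, so the wider spread between the MN WT arrays did not enter it. Each rate rests on 50 changed genes. Far fewer genes were changed than were called in the treated comparisons, so the rates need not hold there. Alternatives were other filters, quantile normalization, a trended robust prior, fits to fewer arrays, clusters in place of genes, same-number arrays averaged, and each array left out. Python 3.11.15 drew the figures with matplotlib 3.10.9.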

Additional observations from a re-analysis of the deposited data

Results flagged for a closer look

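Between stages, the treated genotype difference changed for 1598 genes from NPC to mDPC and for 2273 from mDPC to MN, by a test of the change itself in limma. From NPC to mDPC the largest upward changes (log2) among genes eligible for naming were in Gabrb1 (4.29), Enpp6 (4.15), Pgm5 (4.13), Dcn (3.75), Cd109 (3.47) and Lrrn3 (3.36). The largest downward ones were in A2m (-4.87), Speer8-ps1 (-4.44), Mki67 (-4.14), Pi15 (-4.01), Vat1l (-3.43) and Kif11 (-3.28). From mDPC to MN they were in Padi2 (5.28), Susd2 (5.03), Nell2 (4.15), Cd24a (3.78), Cnmd (3.74) and Spata18 (3.7) upward, and in Dcn (-4.94), Apod (-3.82), Thbs1 (-3.73), Il33 (-3.73), Elobl (-3.62) and Enpp6 (-3.53) downward. The WT level of Dcn was low in mDPC, where both genotypes lay below the negative controls.

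Between treated and untreated arrays, the genotype difference changed for 110 genes in NPC and 139 in MN. In NPC the changes given by the naming rule were in Rpl13-ps3 (-1.56), Rps10-ps2 (-1.43), Rpl36-ps3 (-1.40), Rpl19-ps12 (-1.38), Rpl36-ps12 (-1.36) and Rpl36-ps10 (-1.31), all ribosomal protein pseudogenes. In MN they were in Ifit3 (-2.08), S100a6 (-1.35), Rpl36-ps12 (-1.33), H2ac10 (-1.32), Rpl36-ps3 (-1.29) and Anxa3 (-1.28). With quantile normalization limma called 0 genes in NPC and 9 in MN.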

How the results depend on the processing

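No named gene's called difference reversed its direction, while the majority direction of all calls turned under quantile normalization. Fitting only the groups compared, with fewer degrees of freedom, called 1499, 1729 and 1153 genes in treated NPC, mDPC and MN, 1069 for the change from mDPC to MN, 211 at all 3 stages, and 991, 1178 and 857 untreated calls repeated with LY3201; for the treated minus untreated difference in MN it called 0. Averaging same-number arrays gave 1310 calls in treated NPC. The treated minus untreated count in NPC was 53 with no filter on low values, 265 with a stricter and 341 with a background filter, 0 with quantile normalization and 0 with same-number arrays averaged. In MN it was 91, 247 and 321 under the same filters and 9 with quantile normalization, and in mDPC 3 with quantile normalization; the cause was not tested.

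Leaving out 1 array at a time gave 1281 to 1615 calls in treated NPC, 2223 to 2645 in mDPC and 2540 to 3807 in MN. For the treated minus untreated difference it gave 0 to 376 in NPC, 0 to 8 in mDPC and 18 to 347 in MN. Over 310 values of named genes, 2335 alternatives kept direction and call and 121 lost the call, 59 of them in fits to the compared groups only. With 1 array left out, 1231 kept both, 158 lost the call and 1 gained it. Quantile normalization raised the share of higher genes among calls from 43.9% to 53.1% in NPC, from 47.1% to 52.6% in mDPC and from 46.0% to 55.5% in MN. Windows of 10 and 20 genes, added after seeing the data, gave 14 and 9 X windows in place of 11. No paired analysis was possible because the labels' numbers do not pair the treated arrays: both NPC WT titles share 1 number and the MN genotypes share only 1. Signals near the negative controls limit what can be seen of weakly expressed genes.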
